A study of Mus musculus with 10 samples.

Results

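The transcripts examined here belong to 10 genes of creatine and adenine nucleotide metabolism, chosen by name: the creatine kinases Ckm, Ckb, Ckmt1 and Ckmt2, the creatine transporter Slc6a8, the synthesis enzymes Gatm and Gamt, the adenylate kinase Ak1 and the AMP deaminases Ampd1 and Ampd3. Each name matched a single row among the 54232 genes of the deposited table. RNA had been sequenced from the gastrocnemius, a calf muscle, of 5 mice labelled Des -/- and 5 labelled Des wt/wt, all of the line B6J.129Sv-Destm1Cba/Cscl, in which the desmin allele is disrupted in every cell and not in muscle alone. All animals were 3 months old, and the wild-type mice were littermates of the mutants. The methods speak of pooled RNA, and a legend adds the adjoining plantaris, but the table lists every mouse separately, and a column counts as 1 replicate here. The comparison asks which transcripts differ in muscle without desmin. No treatment was given, and the labels name no sex, although Y-linked transcripts were present in all 10 mice, with values from 8.03 to 11.96.

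Muscle buffers ATP with phosphocreatine. Creatine is built from arginine and glycine by the amidinotransferase Gatm, methylated by Gamt, mainly in kidney and liver, and taken up into muscle by Slc6a8. Mitochondrial creatine kinase charges it with phosphate where ATP is made, and the cytosolic kinase at the myofibrils uses the store to regenerate ATP. When ADP still builds up, adenylate kinase converts it to ATP and AMP, and AMP deaminase removes the AMP as IMP. Desmin, the intermediate filament protein that is missing here, ties mitochondria and myofibrils together.

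All values are regularized log (rlog) values, a log2 scale on which the authors' tool DESeq2 adjusts for library size and draws each gene towards its own mean, so that differences are understated, most of all for genes with few reads. Counts and depth are unknown from such values. Of all genes, 14289 had a mean of at least log2(10) and were tested with limma, with Benjamini-Hochberg adjustment over all of them. All 10 genes were among these, but Ckmt1 only through desmin knock-out muscle, since its wild-type mean lay under the limit of 3.32. The targeted gene Des had rlog values of 11.76 to 11.89 in desmin knock-out and 16.10 to 17.74 in wild-type mice. All 6 markers of skeletal muscle (such as Mylpf and Ryr1) were among the tested genes. Wild-type mouse 3 stood apart from the rest: once values were returned to the linear scale and added up, its total stood at 1.48 times the median mouse, against 0.949 to 1.06 in the others, and its mean correlation with mice of its genotype was 0.982, against 0.989 to 0.997. Calls that change without it are given beside the result.

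The creatine kinases differ in where they are made: Ckm and Ckmt2 are the cytosolic and mitochondrial forms of striated muscle, Ckb the brain-type cytosolic form and Ckmt1 the ubiquitous mitochondrial form. Their upstream sequences are shown because these 4 genes span the widest range of levels and include both the highest and the lowest of the 10. They are the RefSeq sequences on GRCm38.p6, read 5′ to 3′ on the strand of the gene from 250 bases before a transcription start, and stop at the start or earlier, where a GENCODE exon of the gene begins. Capitals mark matches to the E-box CANNTG (the letters that myogenic factors such as MyoD bind, the same on both strands) and to the MEF2 site and the CArG box, searched by name on both strands; in the windows shown no matches overlap.
Ckm, chr7:19410844-19411024, forward strand: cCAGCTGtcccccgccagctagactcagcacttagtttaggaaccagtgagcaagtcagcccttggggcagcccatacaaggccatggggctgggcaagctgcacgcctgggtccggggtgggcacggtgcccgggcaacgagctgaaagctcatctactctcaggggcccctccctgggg
Ckmt2, chr13:91876886-91877135, reverse strand: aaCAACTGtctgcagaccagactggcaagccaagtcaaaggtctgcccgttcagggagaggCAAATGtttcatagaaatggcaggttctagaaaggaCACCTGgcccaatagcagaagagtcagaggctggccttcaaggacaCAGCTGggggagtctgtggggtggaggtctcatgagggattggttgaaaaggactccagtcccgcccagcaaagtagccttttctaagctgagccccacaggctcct
Ckb, chr12:111672339-111672588, reverse strand: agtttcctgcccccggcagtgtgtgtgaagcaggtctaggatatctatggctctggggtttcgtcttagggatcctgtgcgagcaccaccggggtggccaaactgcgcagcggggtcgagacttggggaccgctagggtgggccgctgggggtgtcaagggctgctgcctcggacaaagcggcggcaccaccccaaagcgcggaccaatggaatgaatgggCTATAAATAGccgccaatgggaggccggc
Ckmt1, first of 2 starts, chr2:121357526-121357713, forward strand: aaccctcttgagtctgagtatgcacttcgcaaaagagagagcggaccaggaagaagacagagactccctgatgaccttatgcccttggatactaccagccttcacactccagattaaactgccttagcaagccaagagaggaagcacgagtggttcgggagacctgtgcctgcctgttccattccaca
The window of Ckm held 1 E-box and that of Ckmt2 held 4. Those of Ckb and of both Ckmt1 starts held 0, and the window of Ckb had the only match to a MEF2 site among the 14 windows of these genes. Of all 32851 promoter windows of 250 bases in the table, 66.2% held an E-box, 2.92% a MEF2 site and 1.47% a CArG box. An E-box match is thus common, and a match to any of them says nothing about a factor bound there. Windows were found for 8 of the 10 genes, Slc6a8 and Ampd1 being the others. The window of Ckm lies inside the GENCODE gene, which begins further upstream, and rlog values per gene do not show which start was used.

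At an adjusted p under 0.05, 2 of the 10 genes were higher and 1 was lower in desmin knock-out muscle: Ckmt1 and Ampd3 rose and Ampd1 fell. In the same test 13.7% of all genes were called, 7.7% as higher and 5.99% as lower. In 4 of the 10 genes, the same 3 and Ckm, the 5 knock-out values lay wholly above or wholly below the 5 wild-type values, which was the case for 14.4% of all tested genes. Of these 4 genes 2 were higher and 2 lower, against 7.45% and 6.97% of all tested genes. Ckmt1 is in both counts, although it entered the test only through its knock-out values. Under a limit of log2(50) it was not tested, and Ampd3 was the only one of the 10 called higher. The median difference of the 10 genes was 0.072, against -0.0029 for all tested genes. Without wild-type mouse 3, Gamt and Ak1 also passed, which made 3 genes higher and 2 lower.

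**Figure D1:**
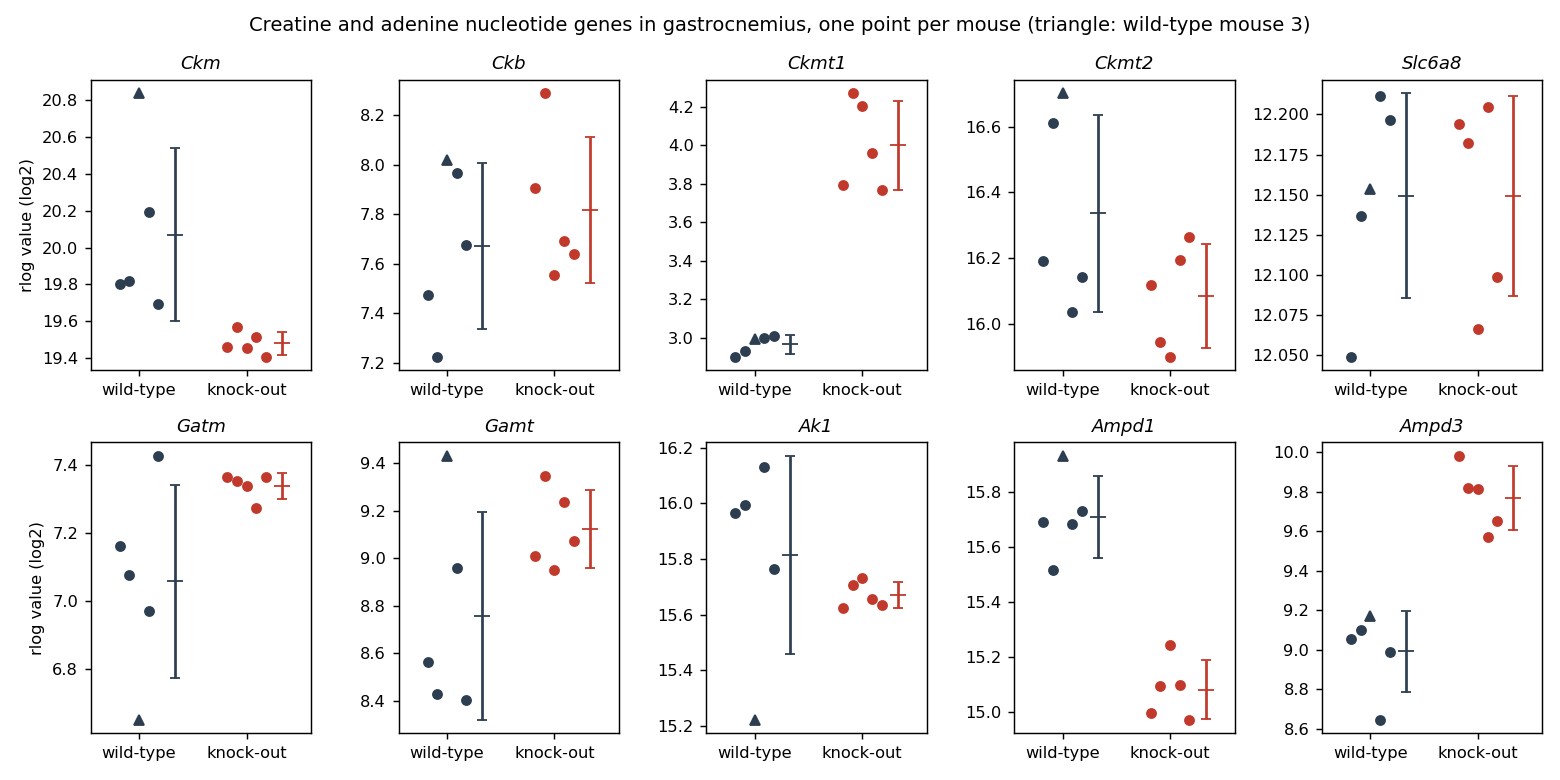
rlog values (log2) of the 10 genes by genotype, 1 point per mouse, with wild-type mouse 3 as a triangle; bars give the mean and SD of 5 mice, and each panel has its own axis. The genotypes are separated in Ckm, Ckmt1, Ampd1 and Ampd3, and for Ckm, Gatm and Ak1 the knock-out points lie much closer together than the wild-type points.

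Divided by exon length, the 10 genes spanned a wide range of levels. On this scale, log2 of the value per kb of exon, the wild-type mean was 18.53 for Ckm, 15.76 for Ckmt2, 14.44 for Ak1 and 13.88 for Ampd1, the 4 genes whose products dominate in striated muscle. Ckm ranked 12 among the 14277 tested genes with a known exon length. Slc6a8 followed with 9.77, Gamt with 8.23, Ampd3 with 6.50, Ckb with 6.14 and Gatm with 5.47, and Ckmt1 was the lowest at 1.65. The order of means was the same in both genotypes. In wild-type mice the ranges of Ak1 and Ampd1, of Ampd3 and Ckb, and of Ckb and Gatm overlapped, whereas in desmin knock-out mice no neighbours overlapped. Ckb was nevertheless above Gatm in each of the 5 wild-type mice, and Ampd3 above Ckb in 4. Ak1 was above Ampd1 in 4 of 5, and their ranges overlapped through wild-type mouse 3 alone.

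**Figure D2:**
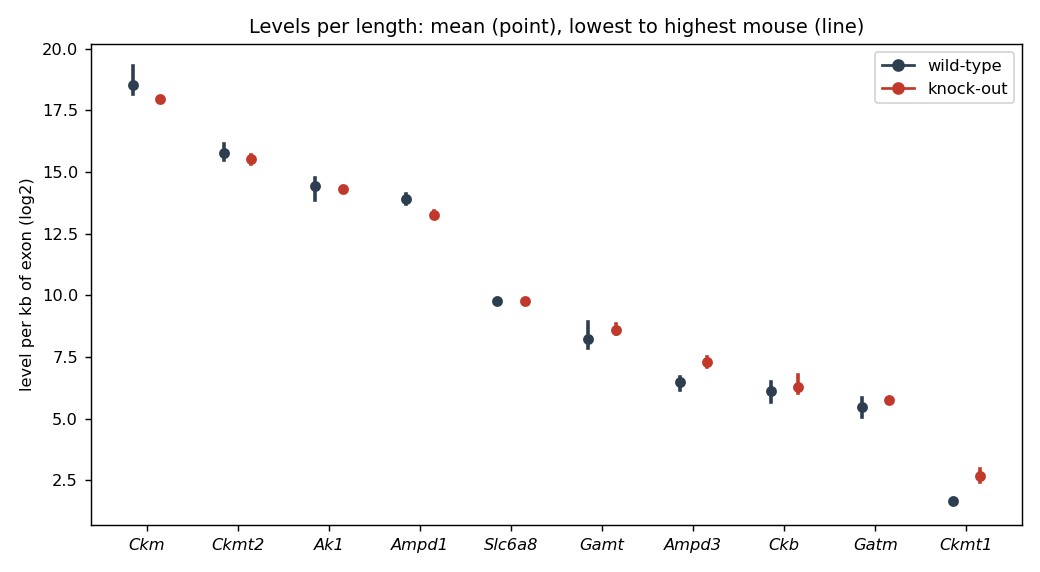
Level per kb of exon (log2) of the 10 genes, ordered by the wild-type mean; points are means of 5 mice and lines run from the lowest to the highest mouse. Ckm leads with 18.53 in wild-type and 17.94 in knock-out mice, and Ckmt1 is last with 1.65 and 2.68.

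Among the creatine kinases, Ckmt1, the rarest, was the only one to pass, while Ckm, the most abundant, lay lower in every knock-out mouse without passing. Ckm (ENSMUSG00000030399, chromosome 7, 19404776 to 19422841 on GRCm38) had rlog values of 19.46, 19.57, 19.45, 19.51 and 19.41 in desmin knock-out mice 1 to 5. The wild-type mice had 19.80, 19.82, 20.84, 20.20 and 19.69. Every knock-out value was lower than every wild-type value, and wild-type mouse 3 was the highest of all. The means were 19.48 ± 0.062 and 20.07 ± 0.47 (SD, n = 5 each), a log2 difference of -0.59 (95% confidence interval -1.09 to -0.090). Across all genes this did not pass (limma, adjusted p = 0.114), while the exact permutation test of the 10 values, two-sided, gave p = 0.00794, the smallest that 5 against 5 allow. The SD between wild-type mice was 7.57 times that between knock-out mice, and 82.9% of all tested genes had the larger SD in wild-type muscle. Without wild-type mouse 3 the log2 difference was -0.40 (adjusted p = 0.0837), and quantile normalization of the samples left -0.16 (adjusted p = 0.404). In share of the summed linear values, Ckm made up 1.77% to 1.96% in desmin knock-out and 2.14% to 3.19% in wild-type mice.

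The mitochondrial form of muscle, Ckmt2 (ENSMUSG00000021622, chromosome 13, 91853387 to 91876885), had values from 15.90 to 16.26 in desmin knock-out and from 16.03 to 16.70 in wild-type mice, which overlapped. Its log2 difference was -0.25 (95% confidence interval -0.58 to 0.077, limma, adjusted p = 0.309). The spread between wild-type mice (SD 0.30) was larger than the difference. The 10 respiratory chain transcripts followed beside it had a median log2 difference of -0.17, and 0 of 10 passed in limma, with 0 at an unadjusted p under 0.05. Mitochondrial content itself was not measured.

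Ckmt1 (ENSMUSG00000000308, chromosome 2, 121357714 to 121363737) rose. Its rlog values were 3.79, 4.27, 4.20, 3.96 and 3.77 in desmin knock-out mice 1 to 5, compared with 2.90, 2.93, 2.99, 3.0001 and 3.01 in wild-type mice. The lowest knock-out value was above the highest wild-type value. The wild-type values were nearly the same, but all lay under the expression limit of 3.32, so Ckmt1 was tested only through knock-out muscle. The means were 3.9996 ± 0.23 and 2.97 ± 0.049 (SD, n = 5 each), a log2 difference of 1.03 (standard error 0.12, limma, adjusted p = 8.4e-05). With 1 mouse at a time left out it stayed between 0.97 and 1.09. It was among the least abundant genes tested, ranking 14082 of 14289, and fell out of the test under a limit of log2(50). Strc, which encodes stereocilin, overlaps exons of Ckmt1 on the opposite strand and also had a higher mean, 3.37 ± 0.22 against 2.85 ± 0.15 (SD, n = 5 each), but lay under the limit for testing. With no limit on expression it passed as higher (log2 difference 0.52, limma, adjusted p = 0.0402). Whether the counting used strand is not given in the sources used here, so reads of the overlap cannot be assigned.

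Ckb (ENSMUSG00000001270, chromosome 12, 111669361 to 111672338), the cytosolic form of brain, smooth muscle and many other cells, ranged from 7.55 to 8.29 in desmin knock-out and from 7.22 to 8.02 in wild-type mice. The log2 difference of 0.14 (95% confidence interval -0.23 to 0.52) was smaller than the SD of 0.33 between wild-type mice (limma, adjusted p = 0.634). The annotation also holds pseudogenes of Ckb, to which some of its reads could have gone. Cells other than fibers express Ckb, and their markers moved in both directions. The endothelial list had 5 of 8 genes lower, Vwf (log2 difference -0.62), Cdh5 (-0.52), Pecam1 (-0.49), Tie1 (-0.48) and Tek (-0.41), with summed linear values of 3730 to 5061 in desmin knock-out and 5166 to 6897 in wild-type mice. Of 8 fibroblast genes, 4 were higher, Col1a2 (0.64), Lum (0.99), Col1a1 (0.50) and Col3a1 (0.52), with sums of 15719 to 23814 and 11754 to 22061. Of 6 smooth muscle genes, Lmod1 was lower (-1.12), while Myh11 did not pass (-0.36, limma, adjusted p = 0.183), with sums of 5940 to 8324 and 6997 to 12676. Without wild-type mouse 3, 4 endothelial genes and 1 smooth muscle gene were lower and 3 fibroblast genes higher. No marker was at 0 in all mice, and the part of these cells in the result for Ckb was not tested. In bulk muscle, fewer cells of a type and less RNA per cell cannot be told apart.

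**Figure D3:**
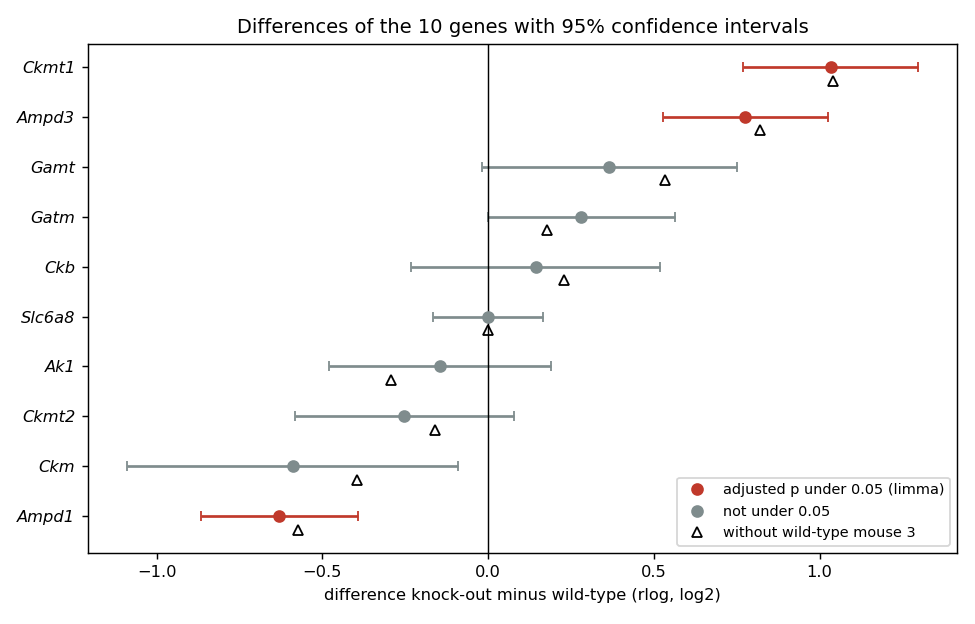
Differences between desmin knock-out and wild-type means (rlog, log2) with 95% confidence intervals from limma, ordered by size; red marks an adjusted p under 0.05 and open triangles give the difference without wild-type mouse 3. Ckmt1 (1.03) and Ampd3 (0.78) lie to the right and Ampd1 (-0.63) to the left, and Slc6a8 sits at 0.

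The supply of creatine showed no gene that passed. Slc6a8 (ENSMUSG00000019558, chromosome X, 73673150 to 73682502), which carries creatine into the fiber, had values of 12.07 to 12.20 in desmin knock-out and 12.05 to 12.21 in wild-type mice. The means were 12.15 ± 0.062 and 12.15 ± 0.064 (SD, n = 5 each), and the 95% confidence interval of the log2 difference, -0.17 to 0.17, was the narrowest of the 10 genes. Gatm (ENSMUSG00000027199, chromosome 2, 122594467 to 122611303) had 7.27 to 7.365 in desmin knock-out and 6.65 to 7.43 in wild-type mice, a log2 difference of 0.28 (95% confidence interval -2e-04 to 0.56, limma, adjusted p = 0.181). The knock-out values lay within the wild-type range and close together. Gamt (ENSMUSG00000020150, chromosome 10, 80258151 to 80261012) had 9.01, 9.35, 8.95, 9.24 and 9.07 in desmin knock-out mice, and 8.56, 8.43, 9.43, 8.96 and 8.40 in wild-type mice. Wild-type mouse 3 held the highest value of all 10, wild-type mouse 4 lay just above the lowest knock-out value, and the other 3 lay below all knock-out mice. The log2 difference was 0.37 (standard error 0.18, limma, adjusted p = 0.205), and without that mouse 0.54 (adjusted p = 0.00913). Of the genes for the methyl donor and for creatine release, 0 of 5 passed in limma, with 1 at an unadjusted p under 0.05 (median log2 difference -0.0083), the smallest adjusted p being that of Ahcy (-0.37, limma, adjusted p = 0.18), followed by Mat2b (0.080) and Mat2a (0.062).

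Ak1 (ENSMUSG00000026817, chromosome 2, 32621758 to 32635058), the cytosolic adenylate kinase of muscle, had 15.63, 15.71, 15.73, 15.66 and 15.63 in desmin knock-out mice. The wild-type mice had 15.96, 15.99, 15.22, 16.13 and 15.76. Wild-type mice 1, 2, 4 and 5 lay above all knock-out mice, while wild-type mouse 3 lay below them. The log2 difference was -0.14 with all mice (standard error 0.16, limma, adjusted p = 0.585) and -0.29 without wild-type mouse 3 (adjusted p = 0.0352). Of the other adenylate kinases, 4 of 8 were tested and 0 passed in limma, with 2 at an unadjusted p under 0.05. Their median log2 difference was -0.23, with -0.52 for Ak4 of the mitochondrial matrix (limma, adjusted p = 0.0952, and 0.025 without wild-type mouse 4) and -0.31 for Ak3.

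The AMP deaminases moved in opposite directions. Ampd1 (ENSMUSG00000070385, chromosome 3, 103074014 to 103099720), the form of skeletal muscle, had 14.997, 15.10, 15.25, 15.10 and 14.97 in desmin knock-out mice and 15.69, 15.52, 15.93, 15.68 and 15.73 in wild-type mice. No knock-out value reached the lowest wild-type value. The means were 15.08 ± 0.11 and 15.71 ± 0.15 (SD, n = 5 each), a log2 difference of -0.63 (standard error 0.11, limma, adjusted p = 0.00169), or 0.646 times the wild-type value on the rlog scale. Ampd3 (ENSMUSG00000005686, chromosome 7, 110768206 to 110812405), known as the erythrocyte form and also made in muscle, had 9.98, 9.82, 9.81, 9.57 and 9.65 in desmin knock-out mice, compared with 9.05, 9.10, 9.17, 8.65 and 8.99 in wild-type mice. All knock-out values lay above all wild-type values. The means were 9.77 ± 0.16 and 8.99 ± 0.20 (SD, n = 5 each), a log2 difference of 0.78 (standard error 0.12, limma, adjusted p = 5.2e-04), or 1.71 times. The exact permutation test gave p = 0.00794 for either gene. Ampd2, the form of liver and many other tissues, had a log2 difference of -0.097 (limma, adjusted p = 0.644).

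A tested gene overlaps the exons of Ampd3 and another those of Ckm, and neither passed. Rnf141, which overlaps Ampd3 on the opposite strand, had a log2 difference of -0.045 (limma, adjusted p = 0.834). The antisense transcript A930016O22Rik, on the other strand from Ckm, had -0.084 (limma, adjusted p = 0.87). Ampd3 is also made in red blood cells. Of 7 erythroid genes 5 were tested, and Alas2 (-0.9999) and Hbb-bs (-0.74) were lower, as was Hbb-bt with wild-type mouse 3 left out (-0.50, limma, adjusted p = 0.011). The summed linear values of that list were 2879 to 4354 in desmin knock-out and 4099.6 to 10609.7 in wild-type mice. The call of Hbb-bs was lost without knock-out mouse 1, 3 or 4 (limma, adjusted p from 0.0502 to 0.0658). With no limit on expression neither Alas2 (adjusted p = 0.0561) nor Hbb-bs (adjusted p = 0.0795) passed. The part of blood in the result for Ampd3 was not tested. Reads of the globin gene Hbb-bs can be split with its close copy Hbb-bt.

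Some fiber type markers also differed between the genotypes. Of 11 fast fiber genes, 0 were higher and 3 lower, Mybpc2 (log2 difference -1.046), Actn3 (-0.97) and Myh4 (-0.71), and the median log2 difference was -0.47. The summed linear values of the list were 4022009 to 4822177 in desmin knock-out and 5039935 to 9131636 in wild-type mice, without overlap. Without wild-type mouse 3 the same 3 genes were lower and Myh1 was higher (0.79), and the call of Actn3 was lost without knock-out mouse 4 (adjusted p = 0.0501), without knock-out mouse 5 (adjusted p = 0.0556) and with no limit on expression (adjusted p = 0.0705). Of 10 slow fiber genes 4 rose and 1 fell. Tnnt1 (1.70), Casq2 (1.005), Tnni1 (0.91) and Myoz2 (0.85) were higher and Myl3 (-0.9985) lower. The slow myosin Myh7 (-0.052), Tpm3 (0.0056), Myl2 (0.13), Atp2a2 (0.28) and Tnnc1 (0.53) did not pass (limma, adjusted p from 0.121 to 0.991). The sums of the slow fiber list were 52421 to 70515 in desmin knock-out and 32523 to 70515 in wild-type mice. This overlap came from wild-type mouse 3 alone, since the next wild-type sum was 44966. Tnnc1 also passed when that mouse was left out (0.72, limma, adjusted p = 0.00835). Of 10 genes of regenerating fibers 7 rose, such as Myh3 by 2.25 and Mymk by 1.93, and Myod1 and Actc1 fell, with sums of 5177 to 8274 and 4326 to 8696. With wild-type mouse 3 left out, Ncam1 passed as higher (0.73, limma, adjusted p = 0.00798) and Actc1 no longer passed (adjusted p = 0.0511), which made 8 higher and 1 lower. These counts stand beside the lower values of Ckm and Ampd1 and the higher Ckmt1 and Ampd3, and the part of fiber type or regeneration in those differences was not tested. The skeletal muscle list had 0 of 6 genes called in limma, with 1 at an unadjusted p under 0.05 (median log2 difference -0.27), with Ryr1 (-0.48, limma, adjusted p = 0.0551, and 0.0295 without wild-type mouse 3) and Mylpf (-0.41, limma, adjusted p = 0.284) closest.

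Within a mouse, the difference between the values of 2 genes does not depend on a shift of the whole sample. Of 5 such pairs compared, 3 separated the genotypes, Ampd3 minus Ampd1 and Ckmt1 minus Ckmt2 by necessity. Ampd3 minus Ampd1 was -5.01, -5.27, -5.43, -5.53 and -5.32 in desmin knock-out mice and -6.64, -6.41, -6.76, -7.04 and -6.74 in wild-type mice. The gap between the forms thus narrowed by 1.41 on the log2 scale (exact permutation test, two-sided, p = 0.00794, adjusted over the 5 pairs 0.0132). No mouse overlapped with the other genotype, which was fixed beforehand. Ampd3 lay wholly higher and Ampd1 wholly lower in knock-out mice, so this p adds nothing to the results of the single genes. Ckmt1 minus Ckmt2 was higher by 1.29 (-12.08 ± 0.38 against -13.37 ± 0.31, SD, n = 5 each) with the same exact p, Ckmt1 having met the expression limit only through knock-out muscle. The gap between the genotypes in Ckmt1 was wider than their overlap in Ckmt2, so this separation was fixed beforehand too. Its p adds nothing to the result for Ckmt1. Ckb minus Ckm was higher by 0.73 (-11.66 ± 0.25 against -12.40 ± 0.32, SD, n = 5 each), also with an exact p of 0.00794. In the same exact permutation test Ckm alone already had p = 0.00794, and Ckb alone had p = 0.492. Across all genes in limma neither passed. After quantile normalization Ckb minus Ckm was higher by 0.25 (exact permutation test, adjusted p = 0.384). Ckmt2 minus Ckm was higher by 0.34 (exact permutation test, p = 0.175) and Ak1 minus Ckm by 0.45 (exact permutation test, p = 0.0714), and in both pairs the genotypes overlapped. The log2 difference of Ak1 minus Ckm was 0.10 once wild-type mouse 3 was left out (exact permutation test, p = 0.143).

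**Figure D4:**
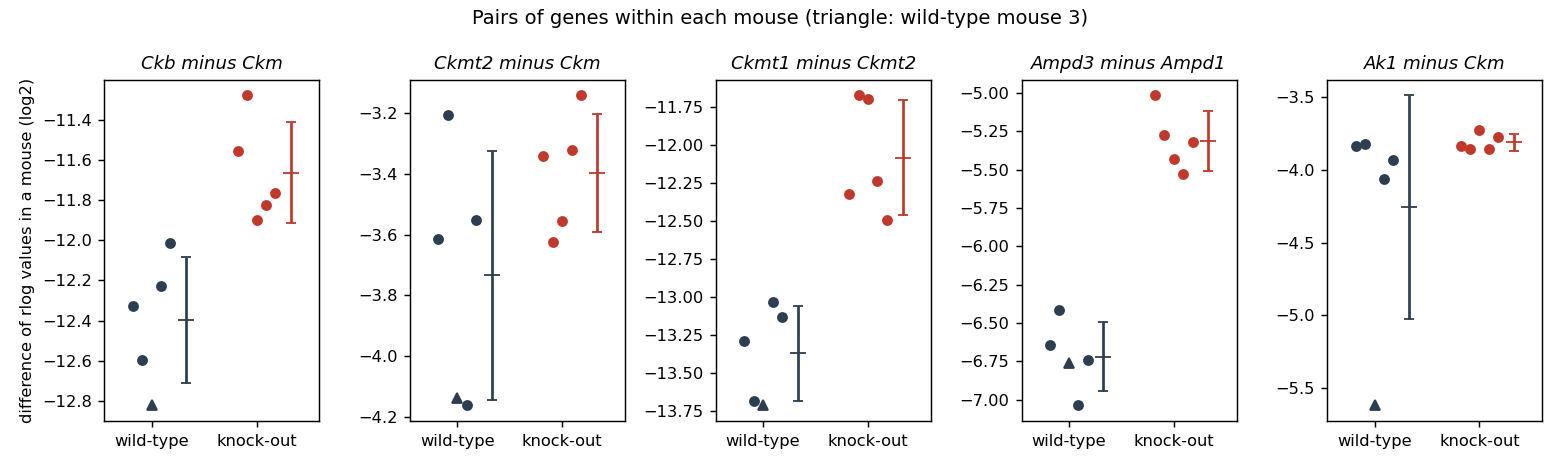
Difference between the rlog values of 2 genes in the same mouse (log2), 1 point per mouse, with wild-type mouse 3 as a triangle and bars for the mean and SD of 5 mice; each panel has its own axis. Ampd3 minus Ampd1 runs from -7.04 to -6.41 in wild-type and from -5.53 to -5.01 in knock-out mice, and in Ak1 minus Ckm wild-type mouse 3 lies far below the other mice.

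The wider adenine nucleotide pathway was followed with 51 further genes in 8 lists, of which 45 were tested. At an adjusted p under 0.05, 3 were higher and 4 lower (limma), which is 15.6% and near the 13.7% of all genes, and their median log2 difference was -0.087. Without wild-type mouse 3, 3 were higher and 7 lower, Adssl1, Prkab2 and Vdac3 being added. The largest differences were those of the cytosolic 5′-nucleotidases, which take the phosphate from AMP or IMP and so compete with AMP deaminase or follow it. Nt5c1a, the AMP-preferring form of skeletal muscle, had 5.87, 5.81, 6.09, 6.03 and 5.91 in desmin knock-out mice and 7.34, 7.61, 7.85, 6.98 and 7.32 in wild-type mice. No values overlapped, and the log2 difference was -1.48 (standard error 0.15, limma, adjusted p = 2e-05). Nt5c2, which prefers IMP and GMP, had 9.05 to 9.23 in desmin knock-out and 7.88 to 8.39 in wild-type mice, a log2 difference of 0.97 (standard error 0.10, limma, adjusted p = 3e-05). The other 7 tested genes of AMP and adenosine breakdown did not pass, with Xdh next (-0.30, limma, adjusted p = 0.199).

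The purine nucleotide cycle returns to AMP the IMP that AMP deaminase makes. Its list here held Ampd2, Adssl1, Adsl and Adss. It left out Ampd1 (log2 difference -0.63) and Ampd3 (0.78), which both passed in limma as described above. Of the 4 listed genes 0 passed in limma, with 3 at an unadjusted p under 0.05 (median log2 difference -0.20). Adssl1, the adenylosuccinate synthase of muscle, had -0.43 (limma, adjusted p = 0.0952), and its 5 knock-out values, 14.90 to 15.04, lay below the wild-type values of 15.19 to 16.07. It passed without wild-type mouse 3, with -0.26 (adjusted p = 0.0232). Adsl had -0.31 (limma, adjusted p = 0.104) and Adss 0.35 (limma, adjusted p = 0.156). Of 3 salvage genes Hprt, which recovers hypoxanthine and guanine, rose by 0.36 (limma, adjusted p = 0.0178), while Adk had -0.24 (-0.365 without wild-type mouse 4, adjusted p = 0.0351) and Aprt -0.087. The call of Hprt was lost without knock-out mouse 4 (adjusted p = 0.0503) and without knock-out mouse 5 (adjusted p = 0.0554). Of 7 genes of purine synthesis from the start, 2 fell. These were Ppat, the committed step, by 0.50 (limma, adjusted p = 0.00762) and Paics by 0.46 on the log2 scale (limma, adjusted p = 0.00137), each without overlap, whereas Gart had -0.11.

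AMP-activated protein kinase senses AMP against ATP. Its catalytic subunit gene Prkaa1 had 10.30, 10.28, 10.27, 10.36 and 10.42 in desmin knock-out mice and 9.66, 9.62, 9.27, 9.21 and 9.50 in wild-type mice. All knock-out values were higher, with a log2 difference of 0.87 (standard error 0.10, limma, adjusted p = 7.7e-05). Prkag3, the regulatory subunit of fast muscle, fell by 0.55 on the log2 scale (limma, adjusted p = 0.0208), and the genotypes overlapped. This call was lost without knock-out mouse 2 (adjusted p = 0.0506), without knock-out mouse 5 (adjusted p = 0.0637) and with no limit on expression (adjusted p = 0.0605). Prkab2 had -0.63 (limma, adjusted p = 0.082), and without wild-type mouse 3 it had -0.89 (adjusted p = 8.6e-06). The other 4 subunits did not pass. Of the carriers that move ATP, ADP and phosphate across the mitochondrial membranes, 6 of 7 were tested and 0 passed in limma, with 1 at an unadjusted p under 0.05 (median log2 difference -0.12), with Vdac3 at -0.26, Slc25a5 at 0.19 and the muscle ADP/ATP carrier Slc25a4 at -0.22. Vdac3 passed without wild-type mouse 3, with -0.19 (adjusted p = 0.0498).

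**Figure D5:**
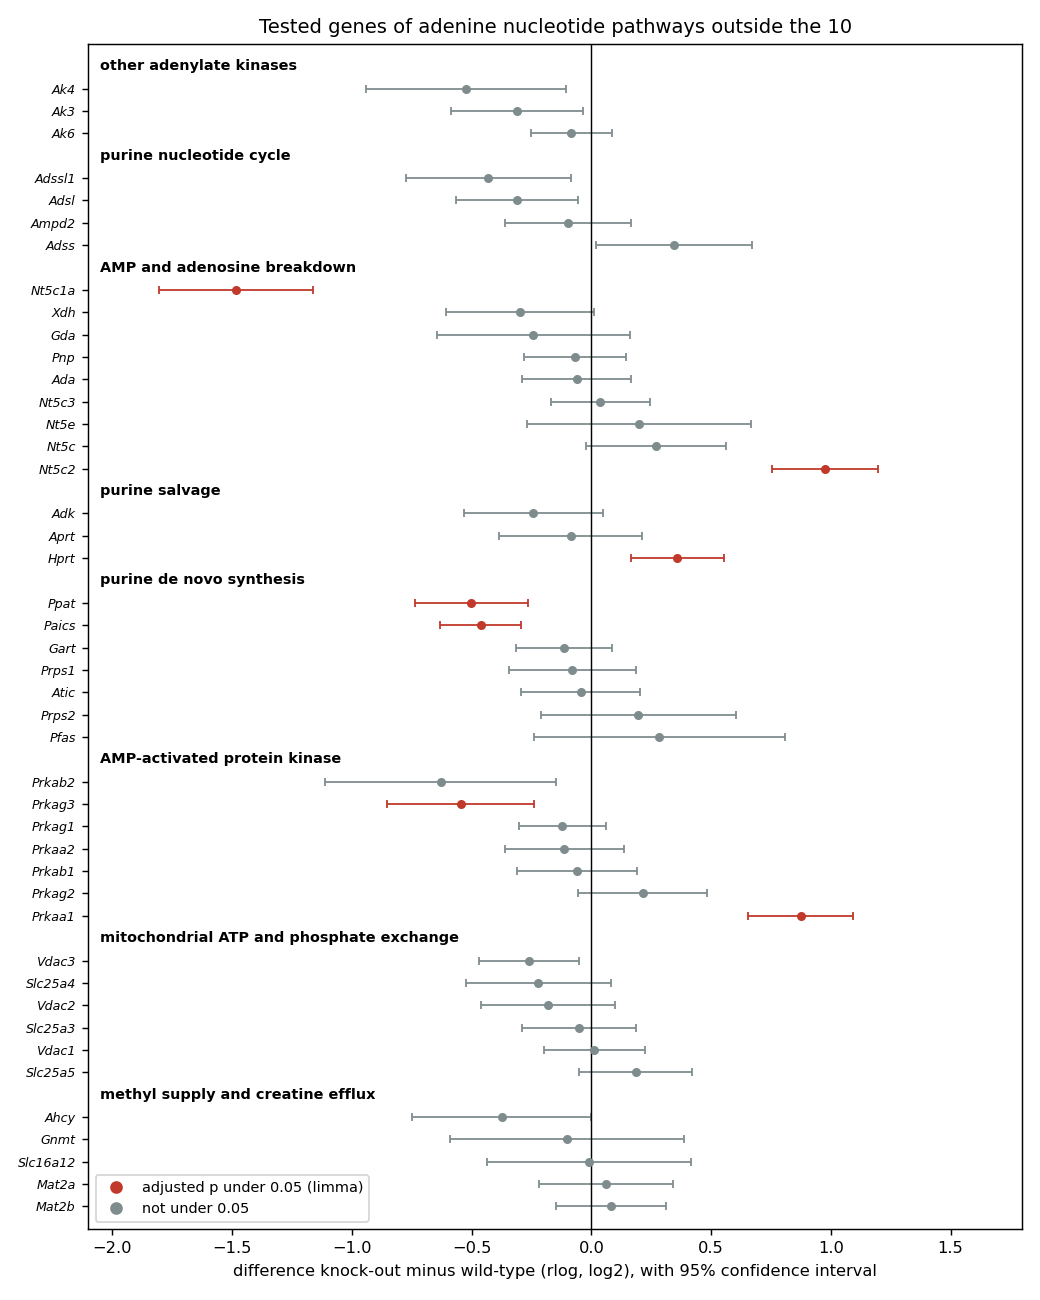
Differences between desmin knock-out and wild-type means (rlog, log2) with 95% confidence intervals for 44 of the 45 tested genes of 8 lists around adenine nucleotides; red marks an adjusted p under 0.05 in limma. The 7 red genes include Nt5c1a at -1.48, Nt5c2 at 0.97 and Prkaa1 at 0.87, and the intervals of most other genes cross 0.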

How the data were processed

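RNA-seq of the gastrocnemius was used, from 5 mice of either genotype, grouped by their labels. The submitters' processing notes name cutadapt 2.5, STAR 2.5.4a, featureCounts of Subread 1.6.1, DESeq2 and GRCm38; the settings of rlog and of strand are not given in the sources used here. The authors deposited a table of rlog values on a log2 scale, with 10 sample columns, all used. Symbols and positions came from GENCODE M21 (GRCm38), which matched 54079 of 54232 rows.

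A gene was tested if its mean reached log2(10). The test was limma 3.58.1 in R 4.3.3 (variance prior following the mean, two-sided, adjusted over 14289 genes). Counts were not used, so the count test of the study could not be run. Whether mice of a genotype were independent beyond their labels is not stated, and p-values measure the spread between them. Single values were tested by exact permutation over mice with scipy 1.17.1. The fit was tested on simulated data.

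The 10 genes and the lists were chosen with earlier results of these data known. Named genes were the 10, Des, the leading genes by adjusted p of each list (at most 3 for pathways and 2 for markers), and the 3 genes most alike in pattern to Ckmt1 and to Ampd1. Ampd2, Hbb-bt, the genes overlapping the 10 and further members of marker lists were named after their values were seen, and some list genes are not reported here. Alternatives were other expression limits, quantile normalization or median centring, 1 prior variance for all genes, weighted samples, the replicate number as a block, a Y-linked covariate, an adjusted p under 0.01 and leaving out each mouse.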

Additional observations from a re-analysis of the deposited data

Results flagged for a closer look

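A single result was flagged among 30 groups of 5 mice (each genotype, for the 10 genes and the 5 pairs). About 1 in 20 groups would be flagged by chance, so 1.5 were expected and 1 is no more than that. The groups also share genes and mice. It was wild-type mouse 3 with Ak1 minus Ckm at -5.62, against -4.06 to -3.82 in the other wild-type mice and -3.86 to -3.72 in desmin knock-out mice. This mouse had the lowest Ak1 (15.22) and the highest Ckm (20.84) of all 10 mice.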

How the results depend on the processing

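The calls of Ckmt1, Ampd1 and Ampd3 held in every alternative in which the gene was tested, with log2 differences of 0.95 to 1.09, -0.68 to -0.51 and 0.64 to 0.82; Ckm, Ckb, Ckmt2, Slc6a8 and Gatm passed in none. A limit of log2(50) left Ckmt1 untested and so 1 higher gene of the 10. With sample weights, 2 of the 10 were lower, Gamt had 0.63 and Ak1 -0.28, both past the threshold, 5 pathway genes were higher and 12 lower, and of all genes 2093 were higher and 2127 lower instead of 1100 and 856. With the Y-linked covariate Gamt passed with 0.59. Quantile normalization took Ckb minus Ckm to 0.25, no longer past the threshold. An adjusted p under 0.01 gave 623 higher and 371 lower genes. With 1 mouse left out, all genes gave 833 to 1335 higher and 560 to 1161 lower, the fewest lower without knock-out mouse 5 and the most without wild-type mouse 3; the 10 genes gave 1 to 2 lower, pathway genes 3 to 7 lower, Gamt 0.28 to 0.54 and Ak1 -0.29 to -0.065. In each of the last 4 results wild-type mouse 3 was 1 end of the range. The cause was not tested. With the replicate block, 913 genes were higher and 666 lower and the 10 genes again gave 2 and 1; of the pathway genes Hprt did not pass (adjusted p = 0.0599), and the pairs were not run with the block. Same-numbered mice correlated in their deviations between -0.22 and 0.067, 0 of 5 best with their own number. No pairing by number showed, but a check on so few mice cannot exclude one. Depth is unknown, which limits Ckmt1 most.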

Other observations

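In the cell types not named above no marker passed in limma. Of 8 Schwann cell genes 0 passed and 1 had an unadjusted p under 0.05 (median log2 difference 0.064, with Ncmap at 0.25 and Prx at -0.21). Of 8 macrophage genes 0 passed, with 0 at an unadjusted p under 0.05 (0.033, with Csf1r at -0.18 and C1qa at -0.17), and of 5 adipocyte genes 0, with 0 likewise (0.022, with Lep at 0.21 and Plin1 at -0.14). In the respiratory chain list the smallest adjusted p values were those of Uqcrc1 (-0.27, limma, adjusted p = 0.28) and Atp5a1 (-0.23).

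Of all tested genes, Gja3, Car5b and Zfp839 followed Ckmt1 most closely across the 10 mice once the genotype means were subtracted, with Pearson correlations of 0.923, 0.912 and 0.896 (Spearman 0.939, 0.830 and 0.891). For Ampd1 these were Wnt4, Tmem50a and Gm10177, with 0.935, 0.931 and 0.921 (Spearman 0.818, 0.758 and 0.903), and 0.879, 0.873 and 0.896 without wild-type mouse 3. They are the highest values over all tested genes in 10 mice that share a scaling, and are given as a description. Between the genotypes, Gja3, a connexin gene, was higher by 0.998 and Wnt4, a secreted signal of the Wnt family, fell by 1.77 on the log2 scale (limma, adjusted p = 1.4e-04 and 1.6e-04), whereas the other 4 did not pass, for example Car5b with a log2 difference of 0.056.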
